A study of Mus musculus with 24 samples.

Results

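The 10 genes described here encode the antigen-presenting machinery of major histocompatibility complex (MHC) class I, and they were chosen by name from the 56748 genes of a read count table. They are the heavy chains H2-K1, H2-D1, H2-Q4, H2-T22 and H2-T23, the light chain B2m, the peptide transporter subunits Tap1 and Tap2, the loading factor tapasin (Tapbp) and the transactivator Nlrc5. All 10 were listed as protein coding and all 10 passed the low-count filter in every comparison. Endothelial cells of the liver (Cd31+) and its sinusoidal endothelial cells (Cd146+) had been isolated with magnetic beads from C57BL/6 mice, described in the methods as female and 3 months old. The cells were cultured and transduced with lentivirus carrying 1 of 4 constructs, and RNA was taken 1 week later. P16 shRNA is a hairpin directed against P16Ink4a, the cell cycle inhibitor and senescence marker encoded by Cdkn2a, and nc shRNA is its non-coding control in the same pLKO.1 vector. P16 is the P16Ink4a cDNA fused to GFP, and its control is the same vector without the insert (empty vector). Every group therefore consisted of cultured, virus-transduced cells, and none was free of virus. Every population was combined with every construct, giving 8 groups of 3 libraries, 24 in all. The sources used here do not state whether the libraries of a group came from separate animals, so p-values measure the spread between these libraries.

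Class I molecules carry short peptides from inside the cell to its surface, where cytotoxic T cells and natural killer cells read them. Peptides cut by the proteasome are pumped into the endoplasmic reticulum by the Tap1 and Tap2 transporter, tapasin holds the empty heavy chain and B2m at the transporter until a peptide binds, and the loaded complex then leaves for the surface. Interferons raise the transcription of these genes, and Nlrc5 is the transactivator that acts on class I promoters. Liver sinusoidal endothelial cells are known to present antigen to passing lymphocytes.

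Library depth was between 15409767 and 26470392 reads on genes. Levels are given as CPM (reads of a gene scaled to a common library size) after TMM normalization, and the limit set by a count of 3 was 0.204 CPM in the shallowest library. Cdkn2a was 56.7 ± 19.9 CPM (SD, n = 3) with nc shRNA and 6.67 ± 2.23 with P16 shRNA in Cd31+ cells, and 139 ± 52.1 and 14.9 ± 9.49 in Cd146+ cells. With the P16 vector it was 230 ± 96.6 CPM against 56.7 ± 23.7 with the empty vector in Cd31+ cells, and 498 ± 308 against 91.9 ± 19.4 in Cd146+ cells. The groups did not overlap in any of the 4 comparisons. The adjusted p of Cdkn2a was 0.0218 for silencing in Cd31+ cells and 0.361 in Cd146+ cells (edgeR). For P16 it was 0.947 in Cd31+ and 0.986 in Cd146+ cells (edgeR), so only the first was under 0.05. The labelled cell type was checked against its markers. The general endothelial markers Pecam1 and Cdh5 averaged 150 and 131 CPM over the 24 libraries, but the Cd146+ libraries numbered 3 stood apart: Pecam1 had 242, 93 and 120 reads there with nc shRNA, P16 shRNA and P16, against 2974 to 6023 reads in the other 9 Cd146+ libraries. Mcam, the gene of Cd146 itself, was 11.6, 3.22 and 10.5 CPM in those libraries against 144 to 385 CPM in the others, so the label was not borne out by its defining marker there. Of the sinusoidal markers, Stab1 reached 430 CPM with a mean of 95.9, Lyve1 and Fcgr2b at most 7.53 and 6.79 CPM, and Stab2 and Clec4g at most 0.962 and 0.225 CPM. The summed level of 11 mesenchymal markers, led by the collagen gene Col1a1, was between 6640 and 51100 CPM, and that of 16 endothelial markers between 314 and 2760 CPM. Although the mice were described as female, 16 libraries held 52.1 to 170 CPM of the Y-linked Ddx3y with at most 4 Xist reads, and the other 8 held 327 to 760 CPM of Xist with no Ddx3y read. Those 8 were all libraries numbered 5, replicate 4 of the Cd146+ empty vector and replicate 6 of Cd146+ P16 shRNA. In Cd31+ silencing, all 6 libraries were of the Ddx3y kind, whereas the other comparisons mixed both kinds.

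The promoters of 8 of the 10 genes were matched by symbol in the RefSeq promoter set (build GRCm38.p6), each window running from 250 bases before to 50 bases after the start. Those of 4 members are printed because they let the reader compare the neighbouring elements of the heavy chain genes with those of the light chain and the transporter. Capitals mark 4 motifs searched on both strands: GGGGATTCC, a kappaB-like word, TGACGC, the core of a cyclic AMP response element-like word, CCAAT, the box bound by nuclear factor Y, and GAAANNGAA, a word of the interferon-stimulated response element type. None of these overlapped another in the printed windows. The windows are H2-K1 (chr17:34000284-34000583, minus strand), H2-D1 (chr17:35262844-35263143, plus strand), B2m (chr2:122147437-122147736, plus strand) and Tap1 (chr17:34187306-34187605, plus strand).
H2-K1: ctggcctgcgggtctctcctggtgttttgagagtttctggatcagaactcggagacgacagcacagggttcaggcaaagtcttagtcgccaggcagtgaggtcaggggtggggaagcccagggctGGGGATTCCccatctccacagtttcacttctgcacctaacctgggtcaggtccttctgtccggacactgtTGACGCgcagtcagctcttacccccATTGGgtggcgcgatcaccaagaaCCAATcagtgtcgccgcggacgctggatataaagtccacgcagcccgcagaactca
H2-D1: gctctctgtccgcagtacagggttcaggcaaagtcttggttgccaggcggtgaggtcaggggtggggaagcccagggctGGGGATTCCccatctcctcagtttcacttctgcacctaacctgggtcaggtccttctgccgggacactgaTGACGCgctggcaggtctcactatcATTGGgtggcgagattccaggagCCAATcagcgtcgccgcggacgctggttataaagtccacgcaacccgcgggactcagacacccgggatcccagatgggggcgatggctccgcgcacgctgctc
B2m: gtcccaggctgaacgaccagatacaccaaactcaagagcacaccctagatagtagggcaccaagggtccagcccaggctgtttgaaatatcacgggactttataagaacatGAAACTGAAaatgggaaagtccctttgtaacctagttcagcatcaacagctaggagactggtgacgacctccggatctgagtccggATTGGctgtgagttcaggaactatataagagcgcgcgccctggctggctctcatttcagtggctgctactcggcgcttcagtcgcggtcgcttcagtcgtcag
Tap1: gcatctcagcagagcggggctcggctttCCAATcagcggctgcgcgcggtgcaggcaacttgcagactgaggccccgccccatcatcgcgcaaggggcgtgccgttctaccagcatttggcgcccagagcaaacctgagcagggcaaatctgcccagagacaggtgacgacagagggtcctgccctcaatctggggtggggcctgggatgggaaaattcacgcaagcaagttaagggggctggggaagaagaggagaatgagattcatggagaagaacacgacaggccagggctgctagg
The H2-K1 and H2-D1 windows shared the kappaB-like word, the TGACGC word and both CCAAT words in the same order, and 89 of the 100 bases from the start of the kappaB-like word were identical between them. The kappaB-like word was found in 2 of the 8 matched members and in 0.25% of 32851 promoter windows of the same length. The exact GAAANNGAA word was found in B2m, H2-T22 and H2-T23, and in 8.56% of all windows. The letters tttcacttc, a near variant of this word on the opposite strand, were not searched for. They occur in the windows of H2-K1, H2-D1 and H2-Q4. TGACGC was found in H2-K1, H2-D1 and H2-Q4 (7.4% of all windows), and CCAAT in all 8 (37.4% of all windows). In H2-Q4 the TGACGC word lay 30 bases after the start, on the opposite strand. These are exact matches of letters and do not show that a factor was bound. Variants of the words were not searched for, so a missing word does not show that a promoter lacks an element of that type.

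In the count table the heavy chain genes, Tap1, Tap2 and Tapbp lie together on chromosome 17, from 34134873 (Tapbp) to 36353639 (H2-T22), B2m lies on chromosome 2 (121978167 to 121983564) and Nlrc5 on chromosome 8 (95160984 to 95253900). These positions are as the table gives them. The processing notes name the build mm9, and the positions differ from those of GRCm38, so the build of the table was not established.

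Per kilobase of gene length, B2m was by far the most abundant member, at 427.7 ± 79.0 CPM per kb (SD) over the 12 control libraries (nc shRNA and empty vector, both populations). The classical heavy chain H2-D1 followed at 31.4 ± 10.04 and Tapbp at 25.1 ± 5.45 CPM per kb, and their ranges overlapped. H2-K1 (13.3 ± 4.39), H2-T22 (12.3 ± 3.53) and H2-T23 (12.2 ± 5.74) did not differ beyond their spread. The same held for Tap2 (5.44 ± 1.73) and Tap1 (5.18 ± 1.25), while H2-Q4 was at 1.56 ± 1.36 and Nlrc5 at 0.0938 ± 0.0540 CPM per kb. The heavy chain genes are close relatives of each other, and reads that fit several of them could have been assigned differently by the counting, so their levels carry this uncertainty. Lower RNA per cell and fewer cells of a kind cannot be told apart in these bulk libraries.

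Silencing of P16Ink4a in Cd31+ cells went along with higher class I levels. On average, every one of the 10 members exceeded its nc shRNA level, by a median of 1.03 on the log2 scale against 0.00342 over all genes tested. Without replicate 3 of P16 shRNA the median was 0.495, and without any 1 of the other 5 libraries it was 0.848 or more. In edgeR's quasi-likelihood test 6 of the 10 rose at an unadjusted p under 0.05, the p threshold drawn in the study's volcano plots, where 9.51% of 14358 genes did so: H2-K1, H2-D1, H2-Q4, B2m, Tapbp and Nlrc5. None reached an adjusted p under 0.05 in this test, where 1.3% of all genes did, and 5 did by DESeq2's Wald test, against 3.38% of all genes upward. In 5 members all 3 P16 shRNA libraries lay above all 3 nc shRNA libraries, a pattern seen in 13.8% of all genes. Libraries with the same number varied together, and with the replicate number as a block over the 12 libraries of the population all 10 members passed the adjusted threshold (adjusted p from 3.91e-05 to 0.0376, edgeR), as did 7.95% of all genes in that direction. Without the block the count rested on single controls: leaving out replicate 1 of nc shRNA lowered it to 3, and leaving out replicate 2 of nc shRNA to 2.

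In Cd146+ cells the same comparison gave a median log2 fold change of 1.497 against 0.0255 over all genes, and of 0.856 without replicate 3 of P16 shRNA, the library with the fewest Pecam1 and Mcam reads. Here 8 of the 10 members rose at an unadjusted p under 0.05 (edgeR), against 5.44% of 15124 genes, the exceptions being Tap1 and Tapbp. No gene of any kind passed the adjusted threshold in this comparison (0% of genes), whereas 6 members did by DESeq2's Wald test, against 0.912% of genes upward. In 9 members, all but Tapbp, the P16 shRNA libraries lay above every nc shRNA library, which 10.5% of all genes showed. With the replicate block over 12 libraries 4 members passed the adjusted threshold (H2-T22, H2-T23, Tapbp and B2m, adjusted p from 0.00808 to 0.0469, edgeR) and 3.53% of all genes did so in that direction. In this population the numbers 2, 4 and 6 each belong to a single library, which the block takes up. Replicate 6 of P16 shRNA thus adds nothing to the blocked comparison, and its silenced side rests on replicates 3 and 5. At the unadjusted threshold the block also gave 8 members, against 13.5% of genes, but Tap1 (unadjusted p = 0.0452) and Tapbp (unadjusted p = 0.00123) gained the call while H2-D1 (unadjusted p = 0.0633) and H2-Q4 (unadjusted p = 0.0837) lost it (edgeR). The nc shRNA and P16 shRNA groups differed in their share of libraries with Xist reads, 1 of 3 against 2 of 3, and with a term for Xist reads all 10 members passed the unadjusted threshold, against 5.98% of genes, with a median of 1.58.

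**Figure D1:**
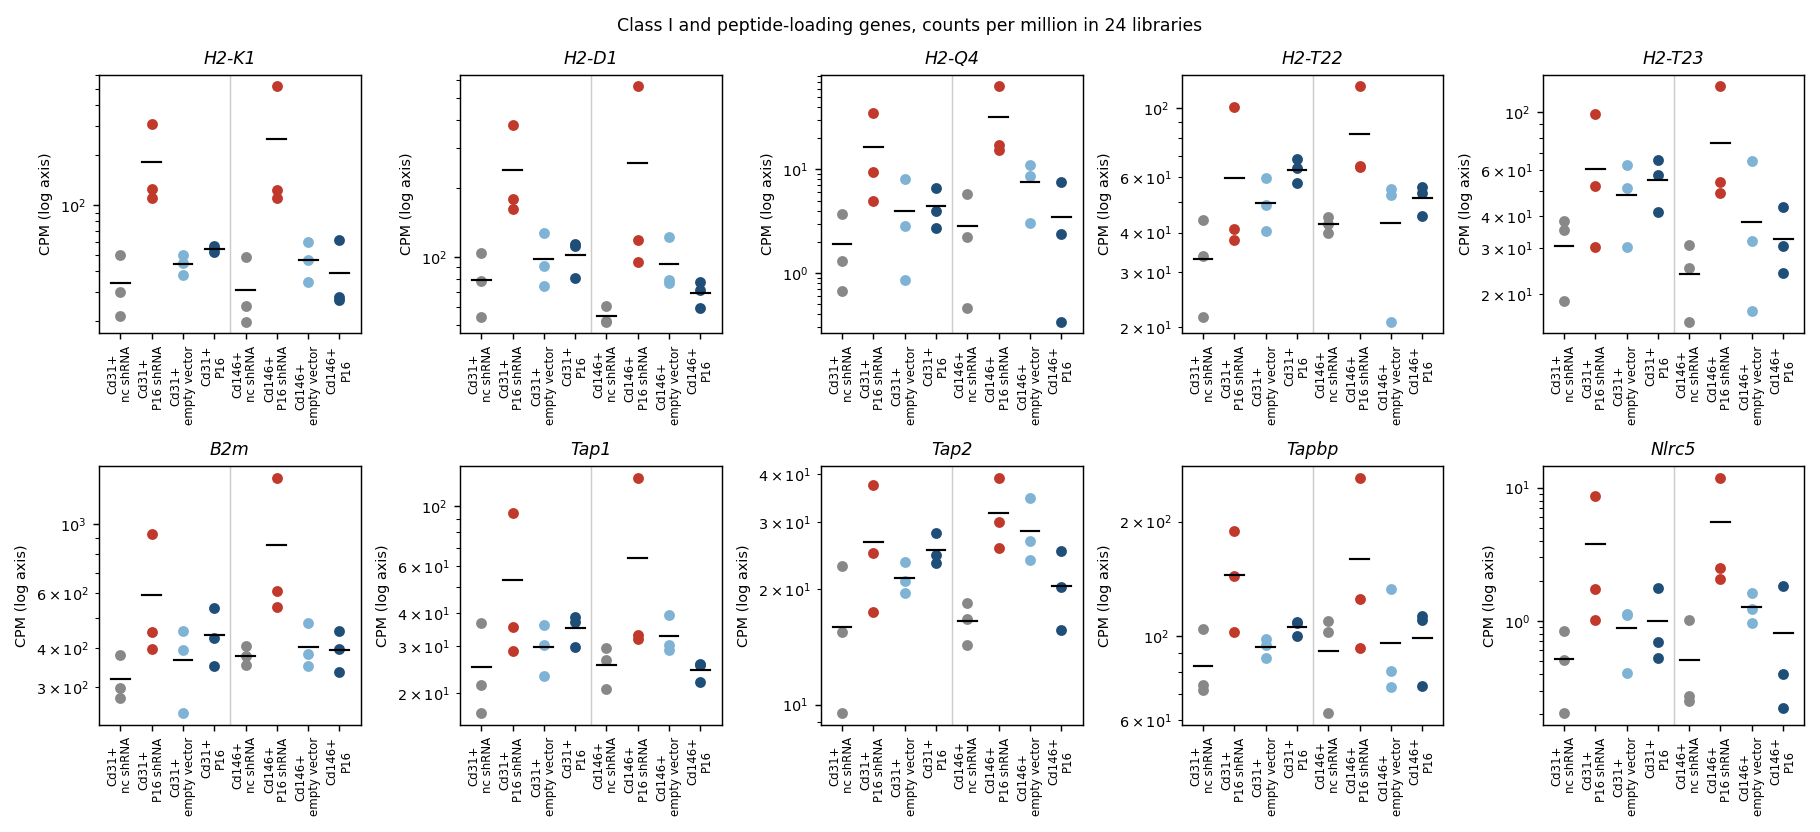
Level of each of the 10 genes (CPM, log axis) in the 24 libraries, grouped by population and construct; points are libraries and black bars the mean of 3. The P16 shRNA libraries (red) lie above the nc shRNA libraries (grey) in 5 genes in Cd31+ cells and 9 in Cd146+ cells, and 1 P16 shRNA library per population stands well above the others.

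The classical heavy chains H2-K1 and H2-D1 present peptides to cytotoxic T cells. H2-K1 in Cd31+ cells was 21.4, 30.1 and 49.8 CPM in the nc shRNA libraries and 110.3, 124.1 and 307.3 CPM in the P16 shRNA libraries. All silenced libraries thus lay well above the highest control. The log2 fold change was 2.43 ± 0.519 (SE), a 5.37-fold difference (unadjusted p = 0.00332, adjusted p = 0.0886, edgeR). In Cd146+ cells H2-K1 was 24.5, 19.9 and 48.6 CPM in the controls and 516.5, 110.1 and 123.6 CPM after silencing, 8.04-fold higher (log2 3.01 ± 0.729, adjusted p = 0.382, edgeR).

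H2-D1 in Cd31+ cells was 54.3, 78.5 and 103.8 CPM with nc shRNA and 161.7, 180.0 and 379.7 CPM with P16 shRNA, and the groups did not overlap. The log2 fold change was 1.62 ± 0.408 (adjusted p = 0.113, edgeR). In Cd146+ cells it was 52.1, 51.8 and 60.6 CPM in the controls and 563.9, 94.6 and 118.4 CPM after silencing (log2 2.24 ± 0.704, adjusted p = 0.397, edgeR), and the unadjusted call was lost with the replicate block. Here replicate 3 of P16 shRNA stood far above the other silenced libraries.

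The non-classical heavy chains are less variable between mouse strains, and H2-T23 (Qa-1) is the ligand of the inhibitory natural killer cell receptor CD94/NKG2A. H2-Q4 showed the widest range of all members, 185-fold from the lowest to the highest of the 24 libraries. In Cd31+ cells it was 0.680, 1.302 and 3.71 CPM with nc shRNA, from 10, 28 and 66 reads, and 4.98, 9.45 and 35.2 CPM with P16 shRNA, from 93, 168 and 758 reads (log2 3.12 ± 0.948, unadjusted p = 0.0162, adjusted p = 0.158, edgeR). The Cd146+ libraries held 2.24, 0.459 and 5.82 CPM against 63.2, 15.4 and 17.2 CPM (log2 3.496 ± 0.999, adjusted p = 0.384, edgeR), where the unadjusted call was likewise lost with the block. No silenced library fell within the range of its controls.

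H2-T22 and H2-T23 had smaller fold changes than the other heavy chains. In Cd31+ cells H2-T22 was 21.5, 33.7 and 43.9 CPM with nc shRNA and 41.2, 38.0 and 100.2 CPM with P16 shRNA, so the groups overlapped (log2 0.86 ± 0.456, adjusted p = 0.357, edgeR). For Cd146+ cells the values were 45.0, 42.8 and 40.0 CPM against 117.0, 64.8 and 65.1 CPM, without overlap (log2 0.95 ± 0.265, unadjusted p = 0.00944, adjusted p = 0.382, edgeR). H2-T23 was 18.9, 38.2 and 35.3 CPM against 30.5, 52.2 and 98.8 CPM in Cd31+ cells (log2 0.98 ± 0.479, adjusted p = 0.326, edgeR), where replicate 1 of P16 shRNA lay below 2 of the controls. Cd146+ cells gave 15.7, 30.9 and 25.2 CPM against 125.9, 49.0 and 54.0 CPM (log2 1.67 ± 0.441, adjusted p = 0.382, edgeR).

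B2m, the invariant light chain without which heavy chains do not reach the surface, was 299.0, 278.5 and 381.4 CPM with nc shRNA and 397.0, 453.2 and 929.4 CPM with P16 shRNA in Cd31+ cells. The groups were separated by a narrow margin, and the log2 fold change was 0.90 ± 0.344 (unadjusted p = 0.0378, adjusted p = 0.223, edgeR). In Cd146+ cells B2m was 406.4, 378.4 and 353.0 CPM against 1410, 544.0 and 613.1 CPM (log2 1.17 ± 0.378, adjusted p = 0.397, edgeR). The fold change of the light chain was smaller than that of H2-K1 in both populations, 1.87-fold and 2.25-fold against 5.37-fold and 8.04-fold. The difference between these genes was not tested.

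Of the transporter subunits, Tap1 in Cd31+ cells was 16.9, 21.5 and 36.7 CPM with nc shRNA and 28.8, 35.4 and 94.4 CPM with P16 shRNA, and the groups overlapped (log2 1.09 ± 0.533, adjusted p = 0.326, edgeR). In the Cd146+ population it was 29.5, 26.6 and 20.8 CPM against 128.1, 31.9 and 33.0 CPM. Although no silenced library was below a control, 2 of the 3 were barely above, and Tap1 missed the unadjusted threshold (log2 1.33 ± 0.574, unadjusted p = 0.0574, edgeR). Tap2 was 9.52, 15.4 and 22.97 CPM against 17.5, 24.9 and 37.4 CPM in Cd31+ cells (log2 0.74 ± 0.394, adjusted p = 0.356, edgeR). Values in Cd146+ cells were 14.3, 16.7 and 18.5 CPM against 39.2, 25.6 and 29.9 CPM (log2 0.94 ± 0.217), and it had the smallest unadjusted p of the members there, 0.00381 (edgeR).

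Tapasin (Tapbp) bridges the transporter and the empty heavy chain. It was 71.9, 74.4 and 103.9 CPM with nc shRNA and 143.3, 102.2 and 188.4 CPM with P16 shRNA in Cd31+ cells (log2 0.80 ± 0.252, unadjusted p = 0.0163, adjusted p = 0.158, edgeR), with replicate 2 of P16 shRNA just below the highest control. In Cd146+ cells it was 102.4, 109.2 and 62.6 CPM against 261.2, 92.9 and 125.1 CPM (log2 0.81 ± 0.421, unadjusted p = 0.1, edgeR). Tapbp was the member whose groups overlapped in both populations.

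Nlrc5, the transactivator of the class I genes, had few reads. In Cd31+ cells the 3 nc shRNA libraries held 3, 11 and 15 reads (0.204, 0.512 and 0.842 CPM) and the P16 shRNA libraries 19, 31 and 185 reads (1.02, 1.74 and 8.58 CPM). In Cd146+ cells the controls held 5, 6 and 19 reads (0.273, 0.250 and 1.01 CPM) and the silenced libraries 273, 70 and 42 reads (11.9, 2.48 and 2.05 CPM). The groups were separate in both populations, with log2 fold changes of 2.84 ± 0.946 (unadjusted p = 0.0216, edgeR) and 3.41 ± 0.954 (unadjusted p = 0.0099, edgeR). Counting error alone is large at these depths, and the lowest library stood at the limit of 3 counts.

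**Figure D2:**
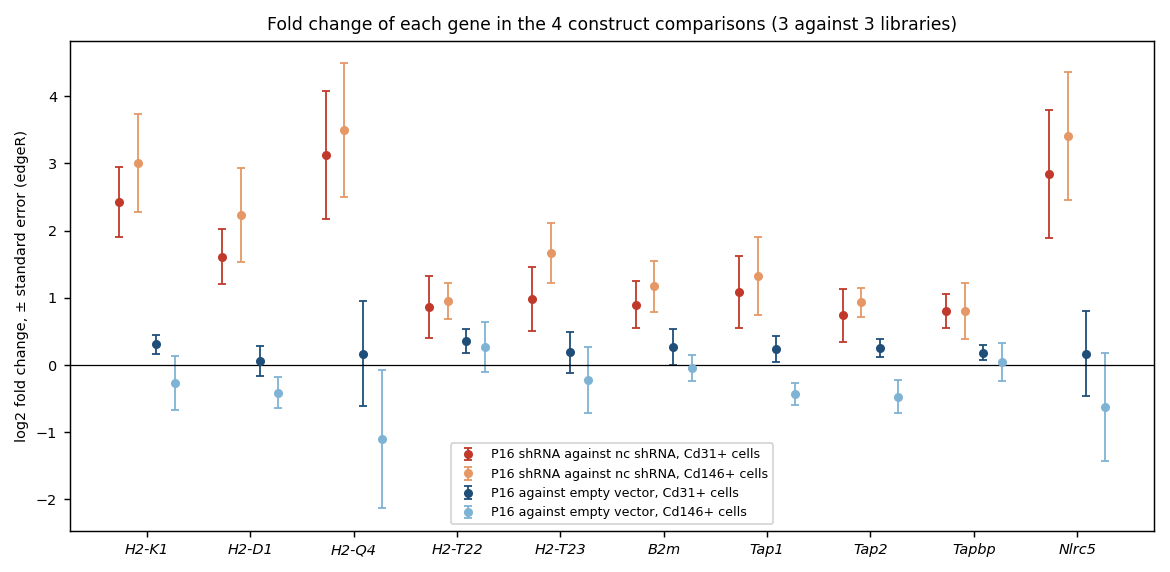
Log2 fold change with its standard error (edgeR, 3 against 3 libraries) for each gene in the 4 comparisons. Silencing (red and orange) gives values from 0.74 to 3.496, all above 0, while P16 (dark and light blue) gives values between -1.10 and 0.36.

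Replicate 3 of P16 shRNA was the highest of the 12 libraries of its population in all 10 members, in both populations. The mean log2 CPM of the 10 members was 6.77 in that library in Cd31+ cells against 5.24 and 5.53 in the other P16 shRNA libraries, and 7.24 in Cd146+ cells against 5.59 and 5.74. Because the numbers were taken to pair the libraries, the same-numbered differences were also computed. All 10 members were higher after silencing in each of the 5 same-numbered pairs. The share of all genes that were higher in every pair was not computed, so this count is not read as particular to the members. The median difference on the log2 scale was 0.954, 0.702 and 1.41 for the numbers 1, 2 and 3 in Cd31+ cells, and 2.13 and 0.662 for the numbers 3 and 5 in Cd146+ cells. The largest difference of a single gene was 6.05, for H2-Q4 in number 3 of Cd146+ cells. Leaving out the libraries numbered 3 of both groups lowered the medians to 0.757 in Cd31+ and 0.838 in Cd146+ cells, and 7 members then passed the unadjusted threshold in each population (edgeR), against 5.15% and 3.71% of genes.

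**Figure D3:**
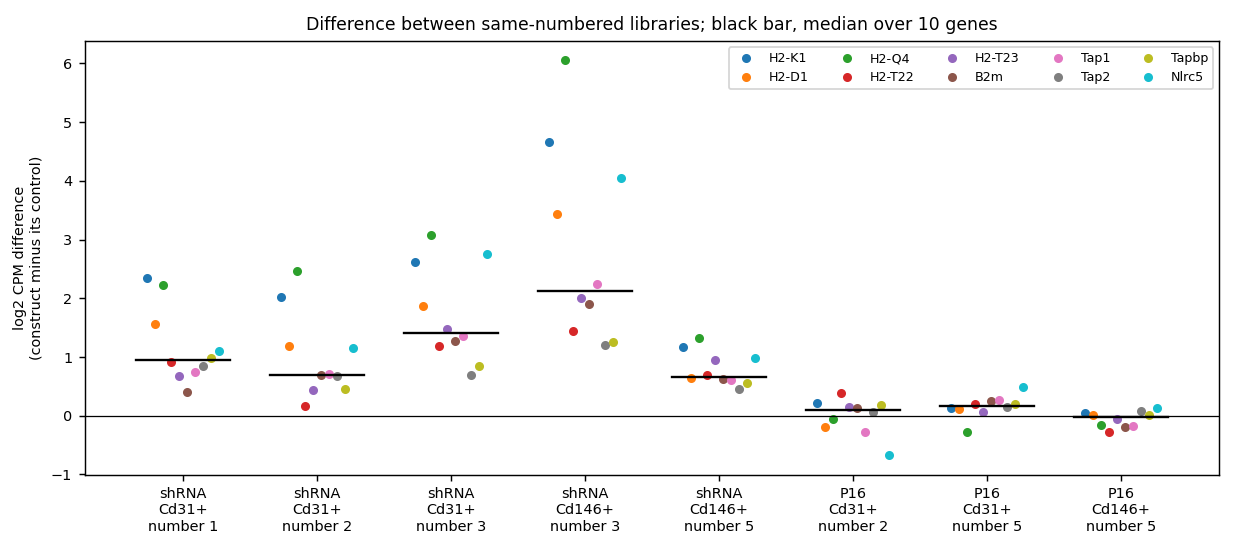
Difference in log2 CPM between same-numbered libraries (construct minus its control) for the 10 genes; black bars are medians. All points of the 5 silencing pairs lie above 0, with the highest median, 2.13, in number 3 of Cd146+ cells, and the medians of the 3 P16 pairs lie between -0.0249 and 0.174. The share of all genes above 0 in these pairs was not computed.

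The classical heavy chains were also compared with each other. The number of H2-K1 reads per H2-D1 read was 0.394, 0.384 and 0.480 in the Cd31+ nc shRNA libraries and 0.682, 0.689 and 0.809 in the P16 shRNA libraries. The Cd146+ cells showed 0.471, 0.384 and 0.801 with nc shRNA and 0.916, 1.16 and 1.04 with P16 shRNA. The groups were separate in both populations, with means of 0.419 ± 0.0528 and 0.727 ± 0.0714 (SD) and of 0.552 ± 0.220 and 1.04 ± 0.122, and each two-sided exact permutation test gave the smallest p that 3 against 3 libraries allow, 0.1. The ratio also followed the replicate number: the control and P16 libraries numbered 5, all of the Xist kind, stood at 0.674 to 0.801, above the other control and P16 libraries, which ranged from 0.283 to 0.587. Replicate 4 of the Cd146+ empty vector, also with Xist reads, had the lowest ratio of all at 0.283. The part of the library numbers in the ratio was not tested.

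**Figure D4:**
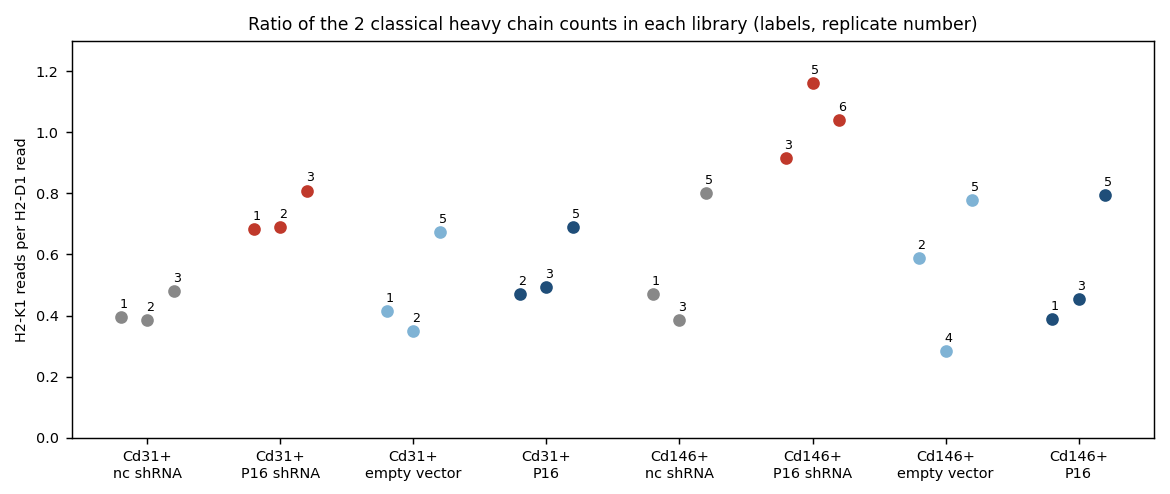
H2-K1 reads per H2-D1 read in each library, with replicate numbers beside the points. The P16 shRNA libraries (red) lie at 0.682 to 0.809 in Cd31+ and 0.916 to 1.16 in Cd146+ cells, and the libraries numbered 5 stand highest in the other groups that hold one.

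Overexpression of P16Ink4a was followed by small and mixed differences. In Cd31+ cells all 10 members were higher with P16 than with the empty vector, with log2 fold changes from 0.06 to 0.36 and a median of 0.21 against 0.0135 over all genes. None passed the unadjusted threshold in edgeR, which 1.45% of genes did upward, none passed the adjusted one (0% of genes), and DESeq2's Wald test gave 0 at both thresholds. With the replicate block over 12 libraries the median was -0.09. H2-K1 was 37.8, 44.7 and 50.2 CPM with the empty vector and 52.3, 56.5 and 55.3 CPM with P16 (log2 0.31 ± 0.141, unadjusted p = 0.0643, edgeR). H2-K1 and Tapbp were the members whose P16 libraries all lay above the controls, as 4.6% of all genes did.

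In Cd146+ cells 8 of the 10 members were lower with P16 and 2, H2-T22 and Tapbp, were higher. The median log2 fold change was -0.34 against -0.00269 over all genes. The groups were unlike in other ways. Replicate 3 of P16, with 120 Pecam1 reads, had no same-numbered empty vector library. Xist reads marked replicate 5 of P16 and replicates 4 and 5 of the empty vector. In the only same-numbered pair, number 5, 5 of the 10 members were higher with P16, with a median of -0.0249. The part of these differences in the result was not tested. Tap1 was the member past the unadjusted threshold, which 1.99% of genes passed downward. It was 30.4, 39.1 and 29.2 CPM with the empty vector and 22.1, 25.5 and 25.7 CPM with P16, the groups did not overlap (4.89% of genes had all P16 libraries below), and it fell by 0.43 ± 0.167 on the log2 scale (unadjusted p = 0.0401, adjusted p = 0.986, edgeR). No gene passed the adjusted threshold (0% of genes), and the Tap1 call was lost without replicate 2, 4 or 5 of the empty vector and without replicate 1 or 3 of P16. With the replicate block over 12 libraries the empty vector side rests on replicate 5, so that fit cannot check the call (Tap1 log2 -0.63).

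The control constructs themselves differed in level. All 10 members were lower on average with nc shRNA than with the empty vector in both populations, with median log2 fold changes of -0.40 and -0.63. In Cd31+ cells none passed the unadjusted threshold, which 1.73% of genes did downward, and in Cd146+ cells 2 did, against 2.13% of genes: H2-D1 (log2 -0.76 ± 0.216, adjusted p = 0.907, edgeR) and Tap2 (log2 -0.79 ± 0.199, adjusted p = 0.907, edgeR). These controls differ in vector and were not the study's comparison. With the replicate block over 12 libraries 7 members were lower in Cd31+ cells at an unadjusted p under 0.05, against 5.89% of genes, among them Tap2 (unadjusted p = 0.000661), H2-D1 (unadjusted p = 0.00379) and H2-K1 (unadjusted p = 0.00766), and none reached an adjusted p under 0.05 (edgeR). In Cd146+ cells the block left H2-T22 (unadjusted p = 0.0169), against 1.24% of genes, and the H2-D1 (unadjusted p = 0.525) and Tap2 (unadjusted p = 0.233) calls were lost (edgeR). The nc shRNA libraries are shared with the silencing comparison. Set against the other vector, the P16 shRNA libraries lay above every empty vector and P16 library of their population in 2 members in Cd31+ cells (H2-K1 and H2-D1) and in 5 in Cd146+ cells (H2-K1, H2-Q4, H2-T22, B2m and Nlrc5). The other members overlapped, such as Tap2 in Cd31+ cells, whose lowest silenced library was 17.5 CPM against a highest empty vector library of 23.5 CPM. The share of all genes above every library of the other vector was not computed, so these counts are not read as particular to the members.

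Between the populations the members differed little in the 12 control libraries. None passed the unadjusted threshold, where 8.34% of genes were higher in Cd146+ cells, and the median log2 difference, Cd146+ against Cd31+, was 0.09. The estimates ran from -0.35 ± 0.320 for H2-T23 to 0.76 ± 0.672 for H2-Q4. The effect of silencing was larger in Cd146+ than in Cd31+ cells for all 10 members in a fit over the 24 libraries, with a median difference of 0.33 on the log2 scale. Without replicate 3 of Cd146+ P16 shRNA the difference was below 0 in 8 of the 10 members, down to -0.739 for Tap1, and without replicate 3 of Cd31+ nc shRNA in 5, so its direction rested on single libraries. None of these differences passed the unadjusted threshold (0.599% of genes did upward), and the one for H2-K1 was 0.59 ± 0.760. The effect of P16 differed by a median of -0.53, again with no member past the threshold (1.78% of genes downward). These standard errors leave room for sizeable differences between the populations.

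The members varied together over the 24 libraries. The correlation of each with the mean of the other 9 (log2 CPM) ran from 0.70 for H2-T22 to 0.94 for H2-K1 and Nlrc5. These values describe libraries that share treatments and numbers. Outside the members the 5 protein-coding genes most like their mean, of 13619, were Psmb9 (r = 0.95), a catalytic subunit of the immunoproteasome, Ifit3 (0.95), Igtp (0.95), Dhx58 (0.94) and Lgals3bp (0.94). Ifit3, Igtp and Dhx58 are interferon-induced genes, and Dhx58 is a sensor of viral RNA.

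The wider pathway was described by lists of genes. A list of 7 genes held the immunoproteasome, which cuts peptides for class I, the PA28 activators and the assembly factor Pomp. At an unadjusted p under 0.05 (edgeR) 4 of the 7 rose in Cd31+ and 5 in Cd146+ cells. The median log2 fold changes over the list were 0.83 and 1.34. In Cd31+ cells Psmb8, Psmb10, Psme3 and Pomp passed, and Psmb9, Psme1 and Psme2 did not. Over all genes 9.51% rose and 10.3% fell at this threshold in Cd31+ cells, and 5.44% rose and 6.18% fell in Cd146+ cells. With the replicate block over 12 libraries 5 and 2 of these 7 rose at an adjusted p under 0.05 (edgeR), against 7.95% and 3.53% of genes. Single genes are named from the fits without a block, unless the block is stated. Psmb8, the subunit with chymotrypsin-like activity, rose by 2.96 ± 1.15 and 3.27 ± 0.914 on the log2 scale (SE), and the abundant activator subunit Psme3 went from 106 to 125 CPM in Cd31+ cells. With the block Psmb8 passed the adjusted threshold in Cd31+ (adjusted p = 0.000173) and not in Cd146+ cells (adjusted p = 0.166, edgeR). The assembly factor Pomp rose in both, from 73.8 to 95.7 CPM and from 102 to 143 CPM, while Psme1, at 36.6 and 53.7 CPM and at 45.5 and 86.3 CPM, did not pass. With the block Psme1 did pass the adjusted threshold in both populations (adjusted p = 0.0308 and 0.0203, edgeR). Pomp then passed the unadjusted threshold (unadjusted p = 0.0352 and 0.0405) but not the adjusted one (adjusted p = 0.128 and 0.163, edgeR). The constitutive subunit Psmb7 rose in both populations as well, from 70.2 to 97.7 CPM and from 87.6 to 124 CPM, Psmb5 passed in Cd31+ cells (78.6 to 114 CPM), and Psmb6 passed in neither. Of the 16 chaperones and trimming enzymes outside the members, 4 rose and 1 fell in Cd31+ cells and 2 rose and 1 fell in Cd146+ cells, and with the block 5 and 3 rose and none fell at the adjusted threshold (edgeR). The chaperone Calr rose from 833 to 1090 CPM in Cd31+ cells and Hspa5 from 1010 to 1430 CPM in Cd146+ cells, while Pdia3, a partner of tapasin in the loading complex, was 953 and 891 CPM and 1070 and 1080 CPM and passed in neither. The aminopeptidase Lnpep fell in both populations, from 213 to 160 and from 194 to 118 CPM. Of the 22 regulators of class I transcription, 8 rose and 1 fell in Cd31+ cells and 5 rose and none fell in Cd146+ cells, and with the block 7 and 5 rose and none fell at the adjusted threshold (edgeR). The 3 most abundant, Stat3, Rela and Nfkb1, passed in neither population and were 322, 140 and 63.8 CPM with nc shRNA and 271, 102 and 55.4 CPM with P16 shRNA in Cd146+ cells. Irf7, Irf9 and Stat2, transcription factors of the interferon response, rose in both. Irf7 was 4.02 and 43.3 CPM in the Cd31+ groups and 2.76 and 87.2 CPM in the Cd146+ groups. Psmb8, Lnpep, Irf7, Irf9 and Stat2 were named after their values had been seen.

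Of the class I genes outside the members, 16 were in the table, of which 4 passed the low-count filter in Cd31+ and 5 in Cd146+ cells. Without a block none rose in Cd31+ cells, and in Cd146+ cells H2-M3, which presents formylated peptides, rose from 7.08 to 13.9 CPM and H2-T10 from 0.485 to 2.06 CPM. With the replicate block over 12 libraries H2-T10 rose in Cd31+ cells (log2 1.60 ± 0.49, adjusted p = 0.0431, edgeR). The block kept H2-M3 (adjusted p = 0.0129) but not H2-T10 (adjusted p = 0.12, edgeR) past the adjusted threshold in Cd146+ cells. H2-T24 was 5.19 and 3.59 CPM there and did not pass. The class II loading chaperone H2-DMb1 was the only listed pathway gene with an adjusted p under 0.05 in the edgeR fits without a block, rising from 3.33 to 9.08 CPM in Cd31+ cells (log2 1.45 ± 0.215, adjusted p = 0.0338, edgeR). The class II chains themselves were low, with H2-Eb1 at most 1.61 CPM and H2-Ab1 at most 0.537 CPM in any library. With the replicate block over 12 libraries H2-DMb1 was higher in Cd31+ and Cd146+ cells (adjusted p = 0.000962 and 0.0438, edgeR). Cd74, at most 2.18 CPM, was higher in Cd31+ cells (log2 2.38 ± 0.425, adjusted p = 0.00302, edgeR) and did not pass in Cd146+ cells. In these fits 7.95% and 3.53% of all genes rose at the adjusted threshold. H2-DMa and Ctss passed in neither population. Among ligands that T cells and natural killer cells read beside class I, Cd274, the inhibitory ligand PD-L1, rose in both populations, from 1.13 to 3.34 CPM and from 1.47 to 6.75 CPM. Cd80 fell from 20.5 to 11.9 CPM and the NKG2D ligand Ulbp1 from 63.9 to 41.2 CPM in Cd146+ cells. With the replicate block over 12 libraries Cd80, Ulbp1 and Icam1 were lower in both populations (adjusted p from 0.000191 to 0.0295, edgeR). At this threshold 8.81% and 4.8% of all genes fell. Among these ligands and the class I-like genes, Cd274, Cd40, Cd1d1 and Hfe were higher in Cd31+ cells with the block, and Hfe in Cd146+ cells. Cd274 did not pass in Cd146+ cells (adjusted p = 0.128, edgeR). Cd274 was named after its values had been seen. Of 6 interferon receptor genes tested, Ifnar2 rose in Cd31+ cells (35.1 to 43.8 CPM) and none in Cd146+ cells. The receptor chains Ifnar1, Ifngr1 and Ifngr2 passed in neither, with log2 fold changes between -0.33 and 0.04. The interferon genes looked up were Ifnb1, Ifng, Ifna2, Ifna4, Ifnl2 and Ifnl3. All were at or near 0 in every library: Ifnb1 had at most 8 reads, in replicate 3 of Cd146+ P16 shRNA, and Ifng at most 2. Other interferon genes were not looked up.

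Markers of the labelled and of other cell types were compared beside these results. The sum of the 16 endothelial markers was 525 to 1130 CPM with nc shRNA and 319 to 704 CPM with P16 shRNA in Cd31+ cells, and 350 to 2070 and 314 to 1930 CPM in Cd146+ cells. In Cd31+ cells Mcam was 77.4, 118 and 154 CPM with nc shRNA and 32.2, 53.1 and 63.7 CPM with P16 shRNA (log2 -1.23 ± 0.336, unadjusted p = 0.00973, edgeR), and with the block Mcam and Eng were lower at an adjusted p under 0.05, as were 8.81% of genes (4.8% in Cd146+ cells, where 0 endothelial markers passed). The part of these endothelial markers in the class I result was not tested. Macrophages and dendritic cells express class I strongly. The sum of 13 macrophage markers was 47.1 to 155 CPM with nc shRNA and 38.7 to 127 CPM with P16 shRNA in Cd31+ cells, and 27.9 to 350 and 20.8 to 321 CPM in Cd146+ cells. No macrophage marker passed the unadjusted threshold in either silencing comparison without a block (0 of 11 tested). With the block Cd14 was higher in Cd31+ cells (log2 0.75 ± 0.232, adjusted p = 0.0456, edgeR), and Lyz2 was lower in Cd31+ (log2 -0.90 ± 0.149, adjusted p = 0.00197, edgeR) and in Cd146+ cells (log2 -1.11 ± 0.188, adjusted p = 0.0157, edgeR). The Kupffer cell markers Clec4f and Marco had at most 2 reads and 1 read. The pan-leukocyte gene Ptprc had 13, 2 and 84 reads in replicates 1, 3 and 5 of Cd146+ nc shRNA. It had 3, 188 and 51 reads in replicates 3, 5 and 6 of Cd146+ P16 shRNA. Lymphoid markers summed to at most 0.835 CPM and hepatocyte markers to at most 0.917 CPM. The 6 dendritic cell markers summed to 9.71 to 21.3 CPM, most of it Zbtb46, which endothelial cells also express. The mesenchymal sum was 20200 to 37800 CPM with nc shRNA and 24100 to 51100 CPM with P16 shRNA in Cd31+ cells, and 11100 to 27500 and 25600 to 31700 CPM in Cd146+ cells. Col3a1, a fibrillar collagen gene, was higher in both. With the block Col1a2, Col3a1 and Pdgfra were higher in Cd31+ cells and Col3a1 in Cd146+ cells at an adjusted p under 0.05 (edgeR), as were 7.95% and 3.53% of genes. The 6 cholangiocyte markers summed to 100 to 802 CPM with nc shRNA and 190 to 982 CPM with P16 shRNA in Cd31+ cells. Of these, Krt7 and Spp1 were higher and Krt19 lower with the block, and Krt8 was higher in Cd146+ cells. The part of these shifts in the class I result was not tested.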

How the data were processed

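The authors deposited raw read counts per gene for 24 libraries and 56748 genes, with no normalization. The authors' gene length column gave the levels per kilobase. RNA quality control, sequencing and data analysis were done by a sequencing company. The submitters' processing notes name fastp and the build mm9, and the aligner and counter are not given in the sources used here. The authors' FPKM values, fold changes, p-values and adjusted p-values per comparison were not used. The methods state 6 samples each and the legend 3, and 3 libraries per group were used here. Library depth was 15409767 to 26470392 reads.

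Counts were analysed with R 4.3.3 and edgeR 4.0.16 (filterByExpr, TMM, robust quasi-likelihood fit, two-sided test, Benjamini-Hochberg adjustment over all genes tested). Constructs were set against their respective controls in fits of 6 libraries. As alternatives, genes were kept from 1 count upward, and use was made of DESeq2 1.42.0 (size factors, Wald test), 12-library fits, the replicate number as a block, and each library left out. Replicate numbers come from the labels. After group means were taken out, same-numbered libraries correlated with a median r of 0.576 (lowest 0.36, 13 pairs, Cd31+) and 0.699 (lowest 0.35, 10 pairs, Cd146+). Libraries with different numbers had medians of -0.173 and -0.0651 but reached 0.453 and 0.441, so the ranges overlapped. On these medians the numbers were taken to pair the samples. Log2 values of single libraries used a pseudocount of 0.5 CPM. The code was tested on simulated data. Named genes were the 10 members, Cdkn2a, the 3 most abundant genes of a pathway list, any listed gene with an adjusted p under 0.05, and the 5 genes most like the members. Some of these were not printed, and others are marked as named after their values had been seen. The members and lists were chosen with earlier results of these data known. The alternatives without the libraries numbered 3 and with a term for Xist reads were chosen after seeing the data.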

Additional observations from a re-analysis of the deposited data

How the results depend on the processing

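All silencing values of the 10 genes stayed above 0 under every alternative run. The number of genes past the adjusted threshold in Cd31+ silencing, 0 in edgeR without a block, was 2 with all genes of at least 1 count, 5 with DESeq2's Wald test, 2 with 12 libraries and no block, and 10 with the replicate block, within the 2 groups or over 12 libraries. The number past the unadjusted threshold was 10 with either block. In Cd146+ silencing the adjusted count was 6 with DESeq2's Wald test and 4 with the replicate block over 12 libraries, but 0 with the block within the 2 groups. Leaving out single libraries gave 2 to 9 genes past the unadjusted threshold in Cd31+ silencing and 7 to 10 in Cd146+ silencing, with medians from 0.495 to 1.33 and from 0.856 to 1.78. Over all alternatives 28 of 270 values of the difference in silencing between the populations were below 0. For P16 in Cd31+ cells the unadjusted count, 0, was 1 with all genes, 2 with a term for Xist reads and 0 to 2 without single libraries, and the median log2 fold change was -0.0904 with the block over 12 libraries. For P16 in Cd146+ cells the count, 1, was 0 with all genes and with 12 libraries without a block. It was also 0 without the libraries numbered 3 and with the Xist term. Without single libraries it was 0 to 3, and the median ran from -0.503 to -0.136. The block over 12 libraries left replicate 5 alone on the empty vector side, so its count is not given. Without single libraries, the counts for the difference of the P16 effect and for the populations ran from 0 to 1. Where no share of all genes is given for an alternative, its count is not read as particular to the members. The causes were not tested. With 3 libraries per group, Nlrc5 and H2-Q4 rested on as few as 3 and 6 reads in a library.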
